A study of Homo sapiens with 3 samples.

Results

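Alpha and beta tubulin are the subunits of microtubules, and human cells carry a small family of genes, called isotypes, for each of them. The genes described here are 10 such isotypes, chosen by name: 4 alpha tubulin genes (TUBA1A, TUBA1B, TUBA1C and TUBA4A) and 6 beta tubulin genes (TUBB, TUBB2A, TUBB2B, TUBB3, TUBB4B and TUBB6). The choice was made with earlier results of these data known. The 10 are among the 60880 gene rows in the count file, and each matched a single row. Their levels were read in NCI-H1975, an established human lung adenocarcinoma cell line, in the wild-type state, meaning the parental cells rather than the derivative that had become resistant to anlotinib, a tyrosine kinase inhibitor taken by mouth. The study also profiled resistant cells, resistant cells with knockdown of the transcription factor TFAP2A, and chromatin accessibility by ATAC-seq. Values of 1 library, wild-type RNA-seq replicate 2, were analysed, and the resistant, knockdown and ATAC-seq samples were not analysed here. The values therefore describe 1 library of parental cells, with no replicate spread and no comparison between cell states. The labels describe a serum-containing medium and name no drug for this sample.

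An alpha and a beta subunit form a dimer, and dimers join end to end into the protofilaments of the microtubule wall. Isotypes of a class have nearly the same body and differ most in the acidic tail at the carboxyl end, where enzymes add or remove tyrosine and glutamate and where motors and other proteins bind. Epithelial tumour cells depend on microtubules for the mitotic spindle and for transport, and the taxanes and vinca alkaloids used against lung cancer bind beta tubulin.

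The library held 25012733 counts. A gene was called detected at 10 counts or more, which 17925 rows (29.4% of all rows, and 69.7% of 19056 protein-coding rows) reached, with a median of 14.4 CPM (counts per 1000000 counts of the library) among detected genes. At this depth 1 count was 0.04 CPM, and a count of 0 allowed up to 3 counts, or 0.12 CPM, as a one-sided 95% limit. All intervals are two-sided exact 95% intervals (Poisson for levels, Clopper-Pearson binomial for shares and ratios) and cover counting error only. CPM is not divided by transcript length, and no transcript lengths were used here, so every order, share or ratio of genes below is one of reads and not of RNA molecules. All 7 epithelial markers of lung adenocarcinoma were detected, with a median of 1332 CPM. The lung lineage factor NKX2-1 was the lowest of them, with 2926 counts, or 117 CPM. Of 10 leukocyte, endothelial and fibroblast markers 1 was detected, VWF with 10 counts.

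The promoters of 6 isotypes are shown because these genes spanned the range from the highest count of the 10 isotypes (TUBA1B) to the lowest (TUBB2B), and because a single start site was listed for each. Each line gives the 100 bases before the start site, 5′ to 3′ on the gene's strand, from RefSeq on GRCh38.p14, a build other than that of the counts. Capitals mark TATAA or TATATA within 50 bases of the start (the TATA box motif, where they overlap both are in capitals) and CCAAT or its complement ATTGG.
TUBA1B, chr12:49131396-49131495, minus strand: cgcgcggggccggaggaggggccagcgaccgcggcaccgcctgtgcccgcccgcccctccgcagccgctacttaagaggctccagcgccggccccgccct
TUBB4B, chr9:137241187-137241286, plus strand: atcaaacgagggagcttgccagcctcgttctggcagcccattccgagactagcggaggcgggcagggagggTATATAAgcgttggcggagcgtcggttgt
TUBA1A, chr12:49189081-49189180, minus strand: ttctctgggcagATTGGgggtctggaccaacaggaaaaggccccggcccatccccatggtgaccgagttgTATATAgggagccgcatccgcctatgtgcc
TUBA4A, chr2:219253919-219254018, minus strand: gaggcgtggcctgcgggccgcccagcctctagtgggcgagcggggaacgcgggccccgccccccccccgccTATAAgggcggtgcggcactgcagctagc
TUBB2A, chr6:3157545-3157644, minus strand: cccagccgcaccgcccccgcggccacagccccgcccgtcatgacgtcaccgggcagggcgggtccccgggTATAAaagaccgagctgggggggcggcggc
TUBB2B, chr6:3227654-3227753, minus strand: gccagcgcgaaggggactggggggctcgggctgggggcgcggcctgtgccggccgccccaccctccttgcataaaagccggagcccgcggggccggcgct

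All 10 isotypes had a promoter window in the table, 15 windows in all, because 4 genes had more than 1 listed start. TATAA or TATATA, searched on both strands in the 50 bases before the start, was present in a window of 6 of the 10 genes (TUBA1A, TUBA1C, TUBA4A, TUBB2A, TUBB3 and TUBB4B). The TATAA matches lay on the gene's strand, and TATATA, the only match in TUBA1A, reads the same on both strands. It was present in 6 of the 15 windows, and in 6.41% of the 35116 promoter windows of the table. In the 6 windows the match began 29 to 33 bases before the start. The sets with and without a match both held strongly read genes: TUBA1B and TUBB, the highest of each class, had none, and neither did TUBB6 or TUBB2B. CCAAT, on either strand in the 250 bases before the start, was present in 9 of 15 windows (7 genes) against 32.0% of all windows. The overlapping windows of TUBA1C hold the same CCAAT site, which is counted in each of them. TUBB4B had 3 copies. The GC box GGGCGG, on either strand in the same 250 bases, was in 9 of 15 windows against 42.6% of all. These matches describe letters in the windows, and the motifs were chosen after the sequences had been seen.

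All 10 isotypes were detected, and together they took 101650 counts, or 4064 CPM (4039 to 4089), which was 0.406% of the library (0.404 to 0.409). Their median was 180 CPM, against 14.4 CPM for all detected genes, and 8 of the 10 lay above that median. The 10 were chosen with earlier results of these data known, so these values do not describe tubulin genes at large. The other 10 alpha and beta tubulin genes with a row had 91 counts together, and 2 were detected. A small number of genes held nearly all of the reads. The 4 highest, TUBA1B, TUBB, TUBA1C and TUBB4B, had 87.6% (87.4 to 87.8) of the counts of the 10 isotypes, and TUBA1B alone had 38.2% (37.9 to 38.5).

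**Figure D1:**
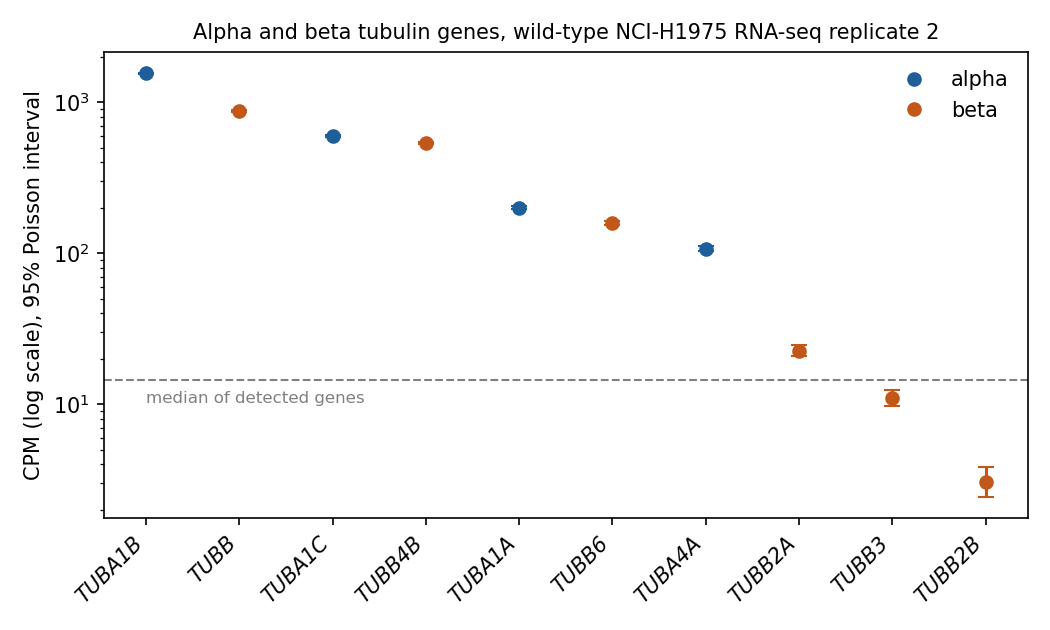
Level of each isotype in CPM on a log axis, ordered by count, in wild-type RNA-seq replicate 2. Points are the single library's values, bars are 95% Poisson intervals, blue is alpha and orange is beta, and the dashed line is the median of detected genes (14.4 CPM). TUBB3 and TUBB2B are the 2 points under the line.

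Among the alpha genes, TUBA1B had by far the most reads and all 4 were well detected. TUBA1B encodes the alpha subunit made in most dividing cells. It (ENSG00000123416.15_5) had 38784 counts, or 1551 CPM (1535 to 1566), the row ranked 42 in the whole file. This exceeded 99.8% of detected genes. It made up 63.1% (62.7 to 63.5) of the counts of the 4 alpha genes.

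TUBA1C, a close relative of TUBA1B that is also broadly expressed, followed. TUBA1C (ENSG00000167553.15_3) had 14972 counts, or 599 CPM (589 to 608), and 24.4% (24.0 to 24.7) of alpha counts. TUBA1A, best known as the main alpha subunit of developing neurons, came next. TUBA1A (ENSG00000167552.13_2) had 5015 counts, or 200.5 CPM (195 to 206), and 8.16% (7.94 to 8.38) of alpha counts. TUBA1B had 7.73 times (7.51 to 7.97) the counts of TUBA1A, and TUBA1C had 2.99 times (2.89 to 3.08). These 3 genes are neighbours on chromosome 12 and together held 95.6% (95.5 to 95.8) of alpha counts. The 3 genes encode near-identical proteins, and their sequences were not compared here. No source used here says how the authors' counting treated reads that fit more than 1 of the genes. The split among the 3 is therefore uncertain.

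TUBA4A was the lowest of the 4 alpha genes. It encodes an isotype without the genetically encoded final tyrosine that most other alpha subunits carry, so that its tail resembles detyrosinated tubulin from the start. TUBA4A (ENSG00000127824.13_3) had 2688 counts, or 107 CPM (103 to 112), and exceeded 88.8% of detected genes. That was 4.37% (4.21 to 4.54) of alpha counts, and TUBA1B had 14.4 times (13.9 to 15.0) as many. TUBA4B, the gene next to TUBA4A, had 4 counts.

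Among the beta genes, 2 took most of the reads. TUBB, the class I isotype present in nearly all cell types, was highest. TUBB (ENSG00000196230.12_2) had 21883 counts, or 875 CPM (863 to 887), and 54.4% (54.0 to 54.9) of the counts of the 6 beta genes. It exceeded 99.4% of detected genes. TUBB4B, the class IVb isotype, which is broadly expressed and abundant in cilia, was next. TUBB4B (ENSG00000188229.5_2) had 13399 counts, or 536 CPM (527 to 545), and 33.3% (32.9 to 33.8) of beta counts. TUBB and TUBB4B together held 87.8% (87.5 to 88.1) of beta counts, and TUBB had 1.63 times (1.60 to 1.67) as many as TUBB4B.

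TUBB4B has a place in cilia, so markers of ciliated cells were read beside it. Of 9 such markers 6 were detected, with a median over the list of 2.08 CPM. Among all protein-coding rows 69.7% were detected. The axonemal dynein DNAH5 had 493 counts, the ciliogenesis factor FOXJ1 had 317 and CFAP43 had 59, while TEKT1 was at 0 and TEKT2 and SPAG6 had 6 and 2 counts. Their part in the TUBB4B level was not tested.

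TUBB6, the class V isotype, held an intermediate place. TUBB6 (ENSG00000176014.12_3) had 3990 counts, or 159.5 CPM (155 to 165), and 9.93% (9.64 to 10.2) of beta counts. It was above 93.3% of detected genes, and TUBB had 5.48 times (5.30 to 5.67) its counts.

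**Figure D2:**
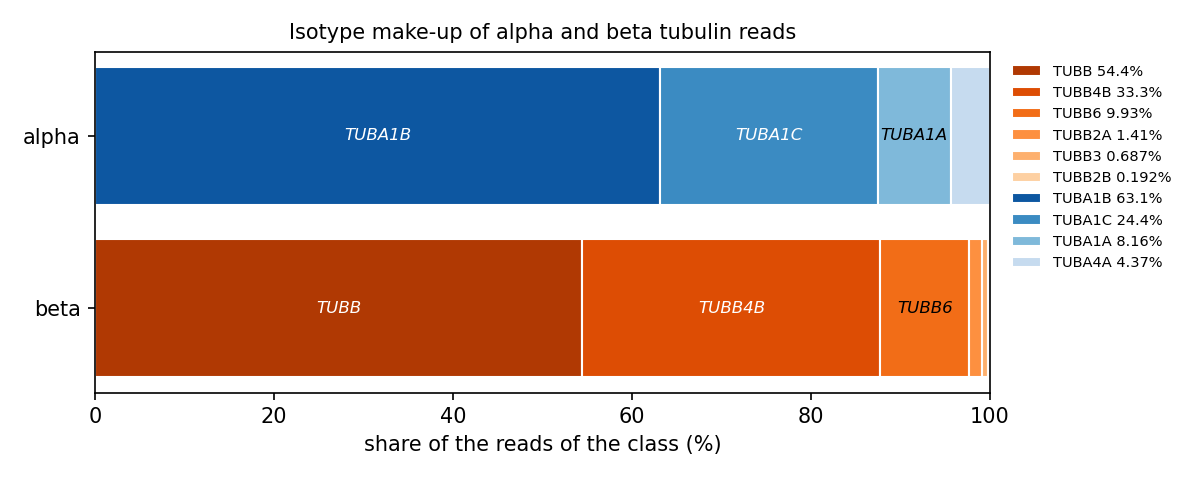
Share of each isotype in the reads of its class, in percent, for the 4 alpha genes (upper bar) and the 6 beta genes (lower bar). TUBA1B has 63.1% of alpha reads and TUBB 54.4% of beta reads, and the 3 palest beta segments are TUBB2A, TUBB3 and TUBB2B.

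The remaining 3 of the 6 beta genes, which are best known from neurons, had fewer reads than TUBB, TUBB4B and TUBB6. TUBB2A, TUBB3 and TUBB2B together held 919 counts, or 2.29% (2.14 to 2.44) of beta counts. TUBB2A, a class II isotype of the brain that other tissues also use, was the highest of them. TUBB2A (ENSG00000137267.5_2) had 566 counts, or 22.6 CPM (20.8 to 24.6), and exceeded 58.7% of detected genes.

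TUBB3 encodes class III beta tubulin, a neuronal marker whose presence in carcinomas has been linked to taxane resistance. TUBB3 (ENSG00000258947.6_5) had 276 counts, or 11.0 CPM (9.77 to 12.4), below the median of detected genes. It was 0.687% (0.608 to 0.772) of beta counts, and TUBB had 79.3 times (70.4 to 89.6) its counts. MC1R, the gene listed before TUBB3 on chromosome 16, had 248 counts. Whether transcripts that run from MC1R into TUBB3 contributed, or whether TUBB3 reads were lost to overlapping annotated genes, was not tested.

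TUBB2B, the class II isotype of the developing brain, was the lowest of the 10 isotypes but was still detected. TUBB2B (ENSG00000137285.9_2) had 77 counts, or 3.08 CPM (2.43 to 3.85), and 0.192% (0.151 to 0.239) of beta counts. TUBB had 284 times (227 to 360) its counts. TUBB2A and TUBB2B encode almost the same protein, and TUBB2A had 7.35 times (5.78 to 9.45) the counts of TUBB2B, with the limit that reads fitting both may have been dropped or split.

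Neuronal markers were read beside these isotypes. Of 12 such markers 4 were detected, against 69.7% of all protein-coding rows, with 200 counts in all and a median of 0.06 CPM. MAP2, with 91 counts, TUBB4A, with 46, and SNAP25, with 36, were highest. DCX, ELAVL4, NEFL, NEFM and STMN2, which define neurons, were at 0, and RBFOX3 and ELAVL3 had 3 and 2 counts.

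In the order of read counts, alpha and beta genes alternated down to TUBA4A, and the last 3 places were beta genes. In none of the 9 pairs of neighbours did the interval of the ratio hold 1, so no neighbours were within counting error of each other. The closest pair was TUBA1C and TUBB4B, with a ratio of 1.12 (1.09 to 1.14), followed by TUBA1A and TUBB6 with 1.26 (1.21 to 1.31). The widest step, 4.75 times (4.34 to 5.21), was from TUBA4A to TUBB2A. Within a class the spread was 14.4 times from highest to lowest in alpha and 284 times in beta. These intervals do not cover differences between cultures or in transcript length, or the unknown treatment of reads that fit several genes.

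**Figure D3:**
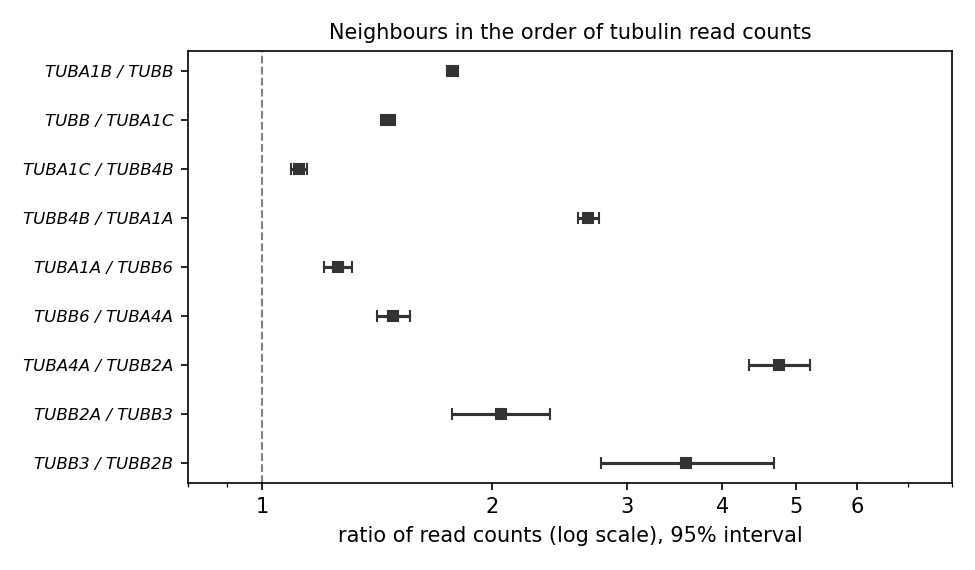
Ratio of read counts between each isotype and the next lower one, on a log axis, with 95% intervals for counting error. All 9 intervals lie to the right of 1 (dashed line), from 1.12 for TUBA1C over TUBB4B to 4.75 for TUBA4A over TUBB2A.

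Summed over the class, the 4 alpha genes had 61459 counts, or 2457 CPM (2438 to 2477), and the 6 beta genes had 40191 counts, or 1607 CPM (1591 to 1623). The ratio of alpha to beta reads was 1.53 (1.51 to 1.55), so alpha genes held 60.5% (60.2 to 60.8) of the reads of the 10 isotypes. How reads that fit several genes were counted is unknown, and these intervals do not cover it.

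Tubulin rows outside the 10 genes added little. The other 10 alpha and beta tubulin genes with a row had 91 counts together, which is 0.0895% of the members' sum, and 2 were detected: TUBB4A, the class IVa isotype of the nervous system, with 46 counts, and TUBA3D with 13. TUBB8, an isotype of oocytes, had 7 counts and TUBA8 had 3, while TUBA3C and TUBA3E were at 0. The 51 alpha and beta tubulin pseudogenes with a row had 368 counts, or 0.362% of the members' sum, and 39 were at 0. TUBBP5, with 204 counts, TUBA5P, with 65, and TUBAP2, with 41, were the highest.

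The antisense gene TUBA1B-AS1, whose RefSeq promoter window overlaps that of TUBA1B on the opposite strand, had 1677 counts, or 67.0 CPM. This was 4.32% of the TUBA1B count. The library kit keeps strand, but no source used here gives the strand setting of the authors' counting, so reads of TUBA1B and its antisense gene may not be separated.

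The listed genes of proteins that fold and join the tubulin dimer were all detected, against 69.7% of all protein-coding rows. The CCT chaperonin, which folds new alpha and beta subunits, had 8 of 8 subunit genes detected at a median of 225 CPM. CCT3 had 449 CPM, CCT5 332 CPM and CCT7 306 CPM. Prefoldin, which hands unfolded tubulin to CCT, had 6 of 6 subunit genes detected at a median of 41.6 CPM, led by PFDN5 at 144 CPM. All 9 genes of the folding cofactors and of tubulin mRNA autoregulation were detected, at a median of 22.2 CPM. TBCD, TBCB and TBCA, cofactors of dimer assembly, had 115, 67.9 and 49.3 CPM, and TTC5, which recognises nascent tubulin when the cell degrades excess tubulin mRNA, had 15.5 CPM.

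Genes of enzymes that act on the tubulin tails and on the alpha subunit lysine inside the microtubule were mixed in level. Of 5 genes of the tyrosination cycle 4 were detected, against 69.7% of all protein-coding rows. Tubulin tyrosine ligase TTL had 1263 counts, or 50.5 CPM, the detyrosinase MATCAP1 had 1083, the detyrosinase VASH1 had 412 and its partner SVBP had 89, while VASH2 had 6. The deacetylases HDAC6 and SIRT2 had 1928 and 700 counts and the acetyltransferase ATAT1 had 280. Against the same 69.7%, 12 of 19 genes of glutamylation, glycylation and their removal were detected, at a median of 1.40 CPM over the list. TTLL12, a member of the ligase-like family, had 9422 counts of the list's 13908, followed by the deglutamylase AGBL5 with 1301 and the glutamylase TTLL4 with 1064, while TTLL2 and TTLL8 were at 0 and TTLL6 had 1.

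Gamma tubulin nucleates microtubules. Its genes and those of its ring complex were read as 1 list with delta and epsilon tubulin. All 13 genes of this list were detected, against 69.7% of all protein-coding rows, at a median of 36.3 CPM. TUBG1 had 2632 counts and its close copy TUBG2 had 963, the ring components TUBGCP2 and TUBGCP6 had 5441 and 3411, and MZT2B had 5032.

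**Figure D4:**
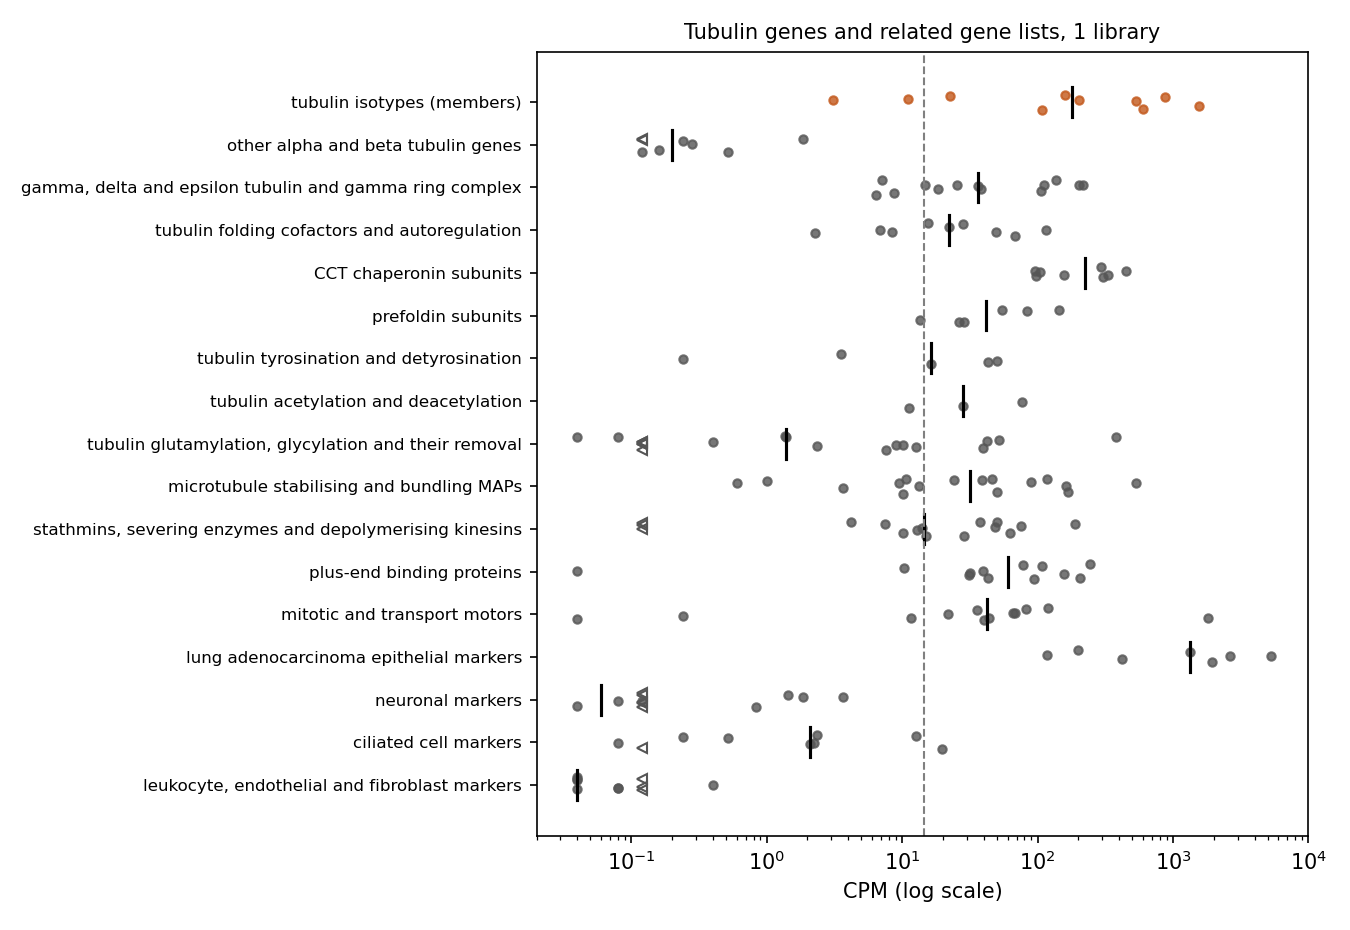
CPM on a log axis of the 10 isotypes (orange) and of 16 related gene lists (grey), 1 point per gene, with the list median as a black bar and the median of detected genes (14.4 CPM) dashed. Open triangles are genes at 0 counts drawn at their one-sided upper limit of 0.12 CPM. The isotypes have a median of 180 CPM, CCT subunits 225 CPM, and neuronal markers 0.06 CPM.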

How the data were processed

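RNA-seq of 1 library was used. Per the labels' protocols, total RNA (1 ug) was made into a directional NEBNext library. The authors deposited raw read counts by gene as whole numbers, with no normalisation. The submitters' processing notes name STAR, featureCounts and hg19 without roles, while the annotation release, strand setting and handling of multi-mapping reads were not given there.

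Identifiers were matched without version to a symbol table (56373 of 60880 rows, 99.8% of counts). The 41 rows for Y copies of pseudoautosomal genes held 0 counts. Counts were divided by the library total to CPM. With 1 library no test was made, and all p-values are left out. Reads lack molecular identifiers, so intervals and limits cover counting error only. RefSeq (GRCh38.p14) gave gene types, neighbours and promoters.

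The 10 members and the 16 related lists (165 entries) were chosen with earlier results of these data known. The rule named all members, and in each list the 3 highest genes and up to 3 under 10 counts. A gene that the rule would name is not reported here. Other list genes and MC1R were named after their values were seen. With 1 library, likeness of patterns across samples could not be measured. Levels per kilobase and protein comparisons were planned but not made, because no transcript lengths or protein sequences were used here. Interval code was tested on simulated counts. Alternatives were other library totals, detection minimums of 1 count, 50 counts or 1 CPM, and wider tubulin sets. Scripts ran in Python 3.11.15 with SciPy 1.17.1, NumPy 2.4.6 and pandas 2.3.3, and Matplotlib 3.10.9 drew the plots.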

Additional observations from a re-analysis of the deposited data

How the results depend on the processing

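All 10 isotypes stayed detected at minimums of 1 count, 50 counts and 1 CPM. A library total without mitochondrial genes multiplied each CPM by 1.06, and one without the 10 highest genes by 1.08. The sum of the 10 isotypes became 4295 and 4374 CPM. Adding all other tubulin genes or the pseudogenes to the class total left each share and the alpha to beta ratio inside its interval. This check cannot show the effect of reads that fit several rows, because such reads may have been dropped from all of them. Adding the antisense counts to TUBA1B, an alternative chosen after seeing the data, gave alpha shares of 64.1% for TUBA1B, 23.7% for TUBA1C and 7.94% for TUBA1A, and a ratio of 1.57. In 40 of 48 list and minimum combinations the number detected stayed within 1.5 times. The exceptions were the list of 8 other alpha and beta tubulin genes, which does not hold TUBA4B and TUBB8B (6 at 1 count, 0 at 50 counts and 1 at 1 CPM), neuronal markers (7 at 1 count and 1 at 50 counts) and leukocyte, endothelial and fibroblast markers (7 at 1 count, 0 at 50 counts and 0 at 1 CPM), where the minimum itself sets the number. Alternatives per kilobase were not run, because no transcript lengths were used here. No paired analysis was possible because a single RNA-seq library was analysed.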

Other observations

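Genes of proteins that bind the tubulin lattice were broadly read. Among all protein-coding rows 69.7% were detected. All 16 genes of stabilising and bundling proteins were detected, at a median of 31.6 CPM. MAP4, which encodes the main such protein of non-neuronal cells, led with 13383 counts, or 535 CPM, close to the 13399 counts of TUBB4B. MAP7D1 and MAP1B had 4190 and 4063 counts. Of 12 genes of plus-end binding proteins 11 were detected. The dynactin subunit DCTN1 led with 6068 counts, before CLIP2 with 5139 and the tubulin polymerase CKAP5 with 3905, while SLAIN1 had 1 count. Of 12 motor genes 10 were detected. The dynein heavy chain DYNC1H1, a very long transcript, had 45008 counts, more reads than any isotype, followed by kinesin KIF5B with 2990 and the dynein intermediate chain DYNC1I2 with 2067. Of the chains best known from neurons, KIF5A had 293 counts, or 11.7 CPM, and KIF5C and DYNC1I1 had 1 and 6 counts.

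Among 16 genes of stathmins, severing enzymes and depolymerising kinesins 13 were detected, against 69.7% of all protein-coding rows. STMN3, a stathmin best known from neurons, had 4738 counts, or 189 CPM, more reads than the 1265 of STMN1, the stathmin of dividing cells, whereas STMN2 and STMN4 were at 0. The mitotic kinesin KIF18B had 1878 counts. The spindle midzone protein PRC1 had 25 counts beside 1098 for the mitotic kinesin KIF23. The folding cofactor TBCE had 57 counts beside 2864 for TBCD. KIF5A, STMN1, PRC1, KIF23 and TBCE were chosen after their values were seen, and whether reads of PRC1 and TBCE were lost to overlapping annotated genes was not tested.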
